A study of Mus musculus with 2 samples.

Results

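Neutrophils of the dental pulp, the soft tissue inside the tooth, were taken from a single-cell RNA-seq series with 1 library of control mice and 1 of mice whose endothelial cells were knocked out for Vegfr2, the receptor of vascular endothelial growth factor encoded by Kdr. All mice were C57BL/6 at postnatal day 12, and both libraries came from cells that excluded propidium iodide, a stain for dead cells. The number of animals in each library and the Cre driver of the knockout were not given in the sources used here. A cell was taken as a neutrophil when it carried 50 or more unique molecular identifiers (UMIs, counted mRNA molecules) of S100a8 and S100a9 together, at least 1 UMI of Csf3r, Retnlg or Cxcr2, and 0 of the endothelial gene Cdh5, the glial gene Sox10 and the mural gene Notch3. The rule found 73 cells among the 4012 cells of good quality, 29 of 2329 control and 44 of 1683 knockout cells. The values of the rule's own genes chose these cells and are given only as description.

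Neutrophils are short-lived phagocytes that mature in bone marrow and enter tissue from the blood. They build their granules in a fixed order, first the primary granules with proteases such as elastase, then the specific granules with lactoferrin and cathelicidin, and later the gelatinase granules, and the mRNAs of these proteins decline as the cells mature. Mature cells in tissue respond to microbes and damage with NF-kB-driven cytokines, chemokines and interleukin 1 beta.

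With 1 library for each genotype, the differences between genotypes could not be tested against replicates. All intervals are exact, at 95%, and cover counting error only. A gene is called higher or lower below where the ratio reached 1.5 in that direction. The median cell of good quality carried 12224 control and 8302 knockout UMIs. Among cells with a Cdh5 UMI, Kdr was found in 377 of 475 (control) and 111 of 167 (knockout), at 849 and 461 CPM (UMIs of a gene scaled to a common library total). Which exons the allele removes was not given in the sources used here, so a 3' tag of Kdr may not report the deletion. Among the other cells with under 50 UMIs of S100a8 and S100a9, 573 of 2293 control and 626 of 1631 knockout cells held at least 1. No member shared its cell barcode with a cell of the other library.

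The name neutrophil held for most of the cells, and the rule also took in 20 cells with abundant RNA of another cell type. In 17 cells the monocyte genes F13a1, Ccr2 and Ms4a6c summed to between 14 and 74 UMIs, whereas the remaining cells had 0 or 1. Of these 17 cells, 2 were control and 15 were knockout cells. They carried a median of 142.5 and 275 S100a8 and S100a9 UMIs in the control and knockout libraries, and Retnlg, a resistin-like gene of neutrophils, was seen in 1 cell of each. A further 3 control cells held 50, 103 and 150 UMIs of the collagen genes Col1a1, Col1a2 and Col3a1, against at most 4 in any other member. They kept high S100a8 and S100a9 (1845 to 2625 UMIs) and Retnlg (18 to 295 UMIs). Scrublet, a doublet caller, marked 24 of the 4012 cells and 0 of the 73.

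**Figure D1:**
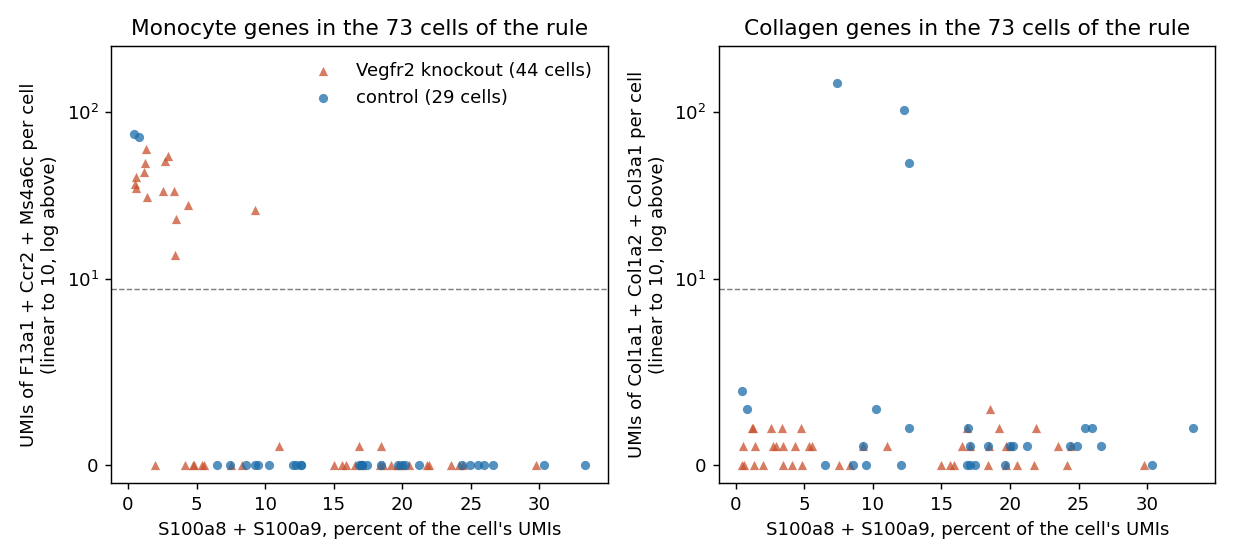
Each point is 1 of the 73 cells that met the rule. The x axis gives S100a8 and S100a9 as percent of the cell's UMIs and the y axes the UMIs of 3 monocyte genes (left) or 3 collagen genes (right). The dashed line marks the limit of 10 UMIs, above which lie 17 cells on the left (2 control, 15 knockout) and 3 control cells on the right.

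The 53 cells with fewer than 10 UMIs of either gene trio, 24 control and 29 knockout, are called neutrophils from here on. This limit was chosen after the values were seen. Of 15 neutrophil marker genes 5 belong to the rule, and the others were all detected in both libraries. Ly6g, the surface antigen used to stain mouse neutrophils, was found in 11 of 24 control and 15 of 29 knockout neutrophils, and Mxd1, a Myc antagonist of mature neutrophils, in 24 of 24 and 27 of 29. The defining macrophage genes C1qa, C1qb and C1qc together gave 0 or 1 UMI in any neutrophil. F13a1, Ccr2 and Ms4a6c are low here by the choice of cells. Of the other monocyte markers, Ly6c2 and Chil3, which neutrophils also express, made most of the summed level. The 5 haemoglobin and erythroid genes were at 0 in all 73 cells. The neutrophils held 173612 control and 171751 knockout UMIs, with medians of 4663 and 4275 UMIs and of 1214 and 1248 genes per cell.

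At the boundary of the rule, 5 knockout cells and no control cell had 25 to 49 S100a8 and S100a9 UMIs and met every other condition. They held 27, 28, 38, 43 and 45 of these UMIs, and 3 of them also carried 17 to 25 monocyte gene UMIs. With 50 or more UMIs, 7 control and 8 knockout cells fell outside the rule. Of these, 5 cells of each library held UMIs of Cdh5, Sox10 or Notch3, 1 to 11 in the control cells and 1 in each knockout cell. One of these knockout cells also had 0 UMIs of Csf3r, Retnlg and Cxcr2. The member of lowest value held 117 UMIs among control and 56 among knockout cells.

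The neutrophil transcriptome was concentrated on few genes. S100a9 and S100a8, the subunits of the antimicrobial protein calprotectin, stood at 115487 and 110154 CPM in control neutrophils and at 94346 and 84786 CPM in knockout neutrophils. S100a8 lies at chr3:90668978-90670035 on the plus strand and S100a9 at chr3:90692632-90695721 on the minus strand of GRCm38 (mm10). Next came the stefin A genes, which encode cysteine protease inhibitors. Stfa1 had 26242 control and 43371 knockout CPM, BC100530 had 25096 and 36349, and Gm5483 had 18605 and 19866. With Stfa2, Stfa2l1 and Stfa3 they form a block of near-identical copies at chr16:36156811-36455392, so the split of UMIs between them is uncertain. The specific granule genes Camp (cathelicidin) and Ngp ranked between BC100530 and Gm5483, at 18795 and 15909 CPM (control) and 25292 and 25904 CPM (knockout). UMIs of the 3' end count molecules and not length. Capture and mapping can still differ between genes, so the order of these levels is approximate.

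Genes with a 1.5-fold higher level in neutrophils than in both Ly6c2 monocytes and C1q macrophages, in both libraries, numbered 485 of 9237 (5.25%), and 3976 (43%) were lower than both. Over all 73 cells these were 396 (4.17%) and 1722 (18.1%) of 9505 genes. The monocytes (39 control, 70 knockout cells) and macrophages (105 and 74) were chosen by their own UMIs, so the genes of these rules are no finding. Of 24 neutrophil identity genes that the rule did not use, 22 were higher and 1, Wfdc17, was lower. All 8 specific granule genes were higher. Camp had 0 UMIs in control monocytes and 3.2 CPM in knockout monocytes.

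Among receptors, Cxcr2 and Csf3r belong to the rule. Other receptors of chemoattractants were higher as well, among them C5ar1 for complement C5a and the formyl peptide receptors Fpr1 and Fpr2. Of 12 measured chemokine receptor genes 5 were higher and 3 lower, beside 5.25% and 43% of all genes. The lower genes were Ccr2, Cxcr3 and C3ar1. Both Cxcr2 and Ccr2 helped to choose the cells compared, so their values in these counts are no finding. Il1r2, the decoy receptor of interleukin 1, had 593 CPM in control neutrophils against 7.5 in monocytes and 3.8 in macrophages. In the knockout library it had 460 CPM against 6.4 and 8.5.

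The most abundant cytokine genes were higher in neutrophils than in both other types. Il1b stood at 1676 CPM in control neutrophils, 127 in monocytes and 75.6 in macrophages, and at 1654, 517 and 97.9 CPM in the knockout library. Cxcl2, a ligand of the receptor CXCR2, stood at 3393, 603 and 233 CPM in the control and at 5054, 894 and 245 CPM in the knockout library. One knockout neutrophil held 59.6% of the Cxcl2 UMIs of that library's neutrophils. Of 14 measured genes of the chemokine and cytokine list, 5 were higher in neutrophils than in both cell types and 2 lower. Over all genes 5.25% were higher and 43% lower.

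Glucose uptake and lactate export genes belonged to the higher set. Slc2a3, the glucose transporter GLUT3, had 340 CPM in control and 419 CPM in knockout neutrophils and at most 8.5 CPM in either other type. Slc16a3, the lactate exporter MCT4, had 461 and 320 CPM in neutrophils and at most 88.1 CPM elsewhere. Of 19 hypoxia and glycolysis genes, 4 were higher and 1 lower, beside 5.25% and 43% of all genes. The higher were Slc2a3, Ldha, Ero1l and Slc16a3, and the lower was Hk2. By contrast 15 of 20 oxidative phosphorylation genes were lower than in both other types and 0 were higher, beside 43% of all genes lower. Over the 73 cells 0 of these 20 were lower.

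Genes tied to blood vessel growth included several at high level in neutrophils. Mmp9, the gelatinase that releases matrix-bound VEGF, had 1054 control and 937 knockout CPM against at most 10.6 CPM in the other types. Prok2, a prokineticin also known as the angiogenic factor Bv8, had 138 and 279 CPM against at most 4.8. Thbs1, an inhibitor of angiogenesis, had 2379 and 1776 CPM in neutrophils, 397 and 1470 in monocytes and 34.0 and 115 in macrophages. Vegfa itself was low, at 92.2 and 52.4 CPM from 16 and 9 UMIs. In all, 5 of 10 genes of the angiogenic list were higher and 1, Vegfb, lower, beside 5.25% and 43% of all genes.

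Other genes were nearly missing from neutrophils. All 6 MHC class II genes were lower than in both other types, with Cd74 at 63.4 and 105 CPM against at least 1580 CPM. S100a10 had 5.8 CPM in each library against 100 to 594 CPM, and S100a4 had 0 and 11.6 CPM against 89.3 to 1397 CPM. Of 20 interferon-stimulated genes 13 were lower and 2, the Schlafen genes Slfn1 and Slfn4, were higher, beside 43% and 5.25% of all genes.

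**Figure D2:**
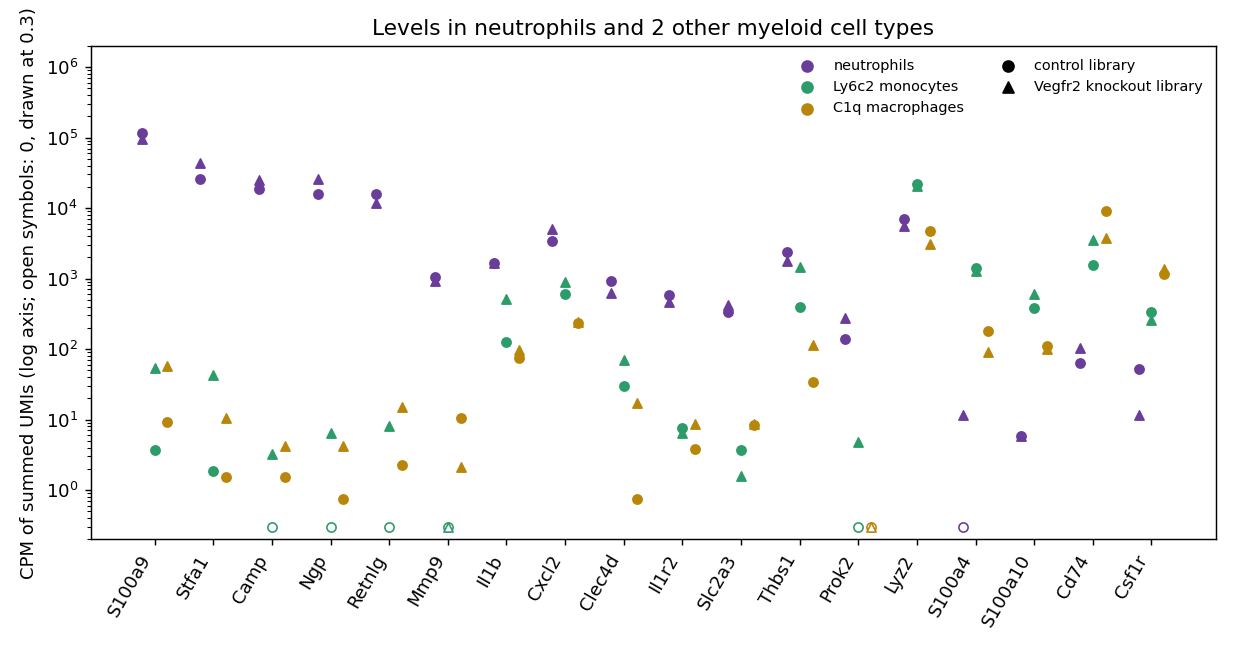
CPM of summed UMIs (log axis) of 18 genes in the 53 neutrophils, Ly6c2 monocytes and C1q macrophages, circles for the control and triangles for the knockout library. Open symbols are 0. From S100a9 to Prok2 the neutrophils have the highest level in both libraries, and for Lyz2, S100a4, S100a10, Cd74 and Csf1r they do not. S100a9 and Retnlg are genes of the rule, and S100a9 was also capped in the other types, so their order is no finding.

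The neutrophils spread along a range from cells rich in specific granule mRNA to cells rich in cytokine mRNA. The 8 specific granule genes (Ltf, Camp, Ngp, Lcn2, Chil3, Cd177, Hp, Olfm4) made between 0.0437% and 14.4% of the UMIs of a control neutrophil and between 0 and 16.6% of those of a knockout neutrophil. At a limit of 1%, 11 of 24 control (45.8%, 25.6 to 67.2) and 15 of 29 knockout neutrophils (51.7%, 32.5 to 70.6) were granule-rich, a knockout over control ratio of 1.13 (0.484 to 2.72). The limit cuts a continuous range, and 7 control and 6 knockout cells lay between 0.5% and 2%. Il1b and Cxcl2 ran the other way. In granule-rich cells they made a median of 0.0100% (control) and 0 (knockout) of UMIs, and in granule-poor cells 1.03% and 1.14%. Spearman's rho between both percentages was -0.59 over 24 control cells and -0.90 over 29 knockout cells, whose values share library and depth. After each cell was thinned to 1000 UMIs it was -0.67 and -0.86.

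**Figure D3:**
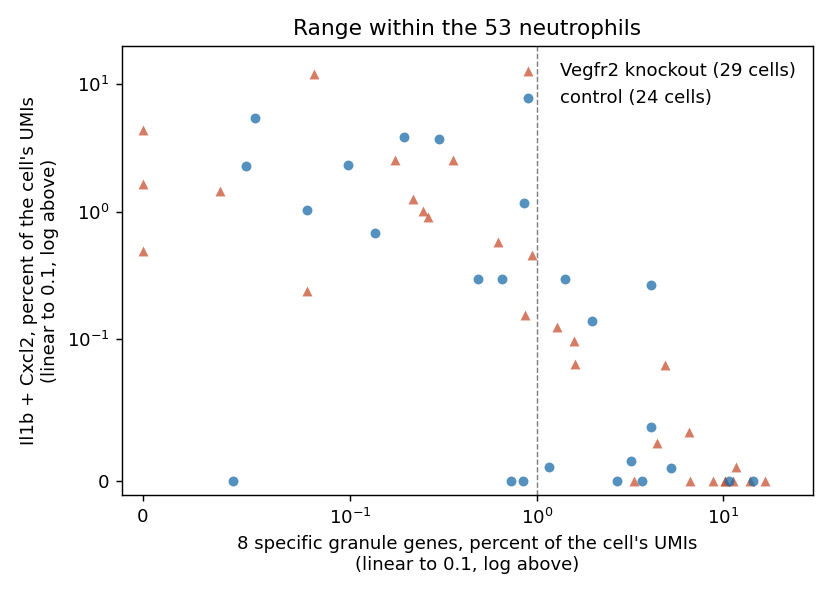
Each point is 1 of the 53 neutrophils, with the share of its UMIs from 8 specific granule genes on the x axis and from Il1b and Cxcl2 on the y axis (both linear to 0.1 and logarithmic above). Cells to the right of the dashed line at 1% hold at most 0.297% of Il1b and Cxcl2, and in both libraries the cells with over 1% of these are to the left.

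Granule-rich cells were larger in mRNA content, with a median of 9985 (control) and 6857 (knockout) UMIs against 4001 and 2875 in granule-poor cells. Among 1800 genes measured, 315 (17.5%) were higher and 447 (24.8%) lower in granule-rich than in granule-poor cells in both libraries. The granule genes define the split. Beside them, Cebpe, the transcription factor of granule gene expression, had 424 against 39.2 CPM in the control and 459 against 122 CPM in the knockout library. Anxa1, an annexin that restrains neutrophil migration, had 1868 against 647 CPM and 4091 against 244 CPM. Cybb, the catalytic subunit of the NADPH oxidase, had 954 against 137 CPM and 849 against 0 CPM.

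A few granule-rich cells had features of the earliest stages. All 4 measured primary granule genes and 9 of 11 proliferation genes were higher in granule-rich cells, and 0 were lower. Beside them 17.5% of all genes were higher and 24.8% lower. The primary granule and proliferation counts rest on single cells. One control cell of 34456 UMIs held 30 UMIs of the cycle genes Mki67 and Top2a and 102 of primary granule genes, among them all 25 Elane and all 52 Prtn3 UMIs of the control neutrophils. In the knockout library 3 granule-rich cells held 22, 9 and 4 UMIs of Mki67 and Top2a, and the second of them held 26 of primary granule genes. Retnlg was at 0 in 3 of these 4 cells and at 20 UMIs in the other.

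Granule-poor cells carried the inflammatory genes. Lower in granule-rich cells of both libraries were 9 of 11 measured chemokine and cytokine genes, 6 of 7 NF-kB targets and 11 of 13 immediate early genes. None of these lists had a higher gene. Over all genes 24.8% were lower and 17.5% higher. Il1b stood at 5546 CPM in granule-poor and 65.3 CPM in granule-rich control cells, and at 6394 and 168 CPM in the knockout library. Cxcl2 stood at 11289 and 106 CPM in the control and 21036 and 45.9 CPM in the knockout library. Csf3r, the receptor of the granulocyte growth factor G-CSF, stood at 745 and 114 CPM, and at 1464 and 91.8 CPM. Csf3r is a gene of the rule, and a cell without Retnlg and Cxcr2 UMIs could enter only through it. Its values are therefore description and no finding. The survival gene Mcl1 and the kinase gene Pim1 were also higher in granule-poor cells of both libraries. Retnlg, also a gene of the rule, did not follow the range. It had 16502 CPM in granule-rich and 14523 CPM in granule-poor control cells and 12235 and 9884 CPM in the knockout library. Il1b was seen in 10 of 13 granule-poor and 5 of 11 granule-rich control cells, and in 14 of 14 and 6 of 15 knockout cells, although granule-rich cells carried more UMIs.

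The promoters of 2 genes of each end of this range are shown, out of more that were looked at. Those of the granule genes Camp, Ngp and Lcn2 overlapped annotated exons and are left out. The lines give 200 bases from 228 to 29 bases before the RefSeq start of the gene, in its own direction, from the RefSeq promoter table of GRCm38.p6. Capitals mark matches on either strand to the core of C/EBP factors, TTNNGNAA, or to an NF-kB motif (GGG, any 2 bases, TTTCC). No match overlapped another. The stretches lie at chr9:111019064-111019263 (plus strand) for Ltf, chr3:106167593-106167792 (minus) for Chil3, chr2:129371168-129371367 (minus) for Il1b and chr5:90903671-90903870 (plus) for Cxcl2.
Ltf: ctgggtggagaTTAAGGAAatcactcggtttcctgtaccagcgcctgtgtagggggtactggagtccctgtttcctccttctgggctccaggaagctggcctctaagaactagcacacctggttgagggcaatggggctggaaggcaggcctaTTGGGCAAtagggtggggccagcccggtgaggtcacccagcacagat
Chil3: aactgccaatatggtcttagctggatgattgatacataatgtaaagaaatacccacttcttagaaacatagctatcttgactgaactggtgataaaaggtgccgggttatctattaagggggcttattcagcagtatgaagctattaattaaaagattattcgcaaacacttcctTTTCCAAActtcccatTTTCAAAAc
Il1b: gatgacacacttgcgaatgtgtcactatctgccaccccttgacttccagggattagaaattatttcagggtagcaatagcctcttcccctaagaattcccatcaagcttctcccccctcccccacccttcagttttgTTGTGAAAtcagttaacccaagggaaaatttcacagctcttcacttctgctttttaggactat
Cxcl2: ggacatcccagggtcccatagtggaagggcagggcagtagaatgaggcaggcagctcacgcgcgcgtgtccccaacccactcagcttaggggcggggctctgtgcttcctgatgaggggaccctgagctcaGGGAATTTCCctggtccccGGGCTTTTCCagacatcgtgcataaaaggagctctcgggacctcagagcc

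The C/EBP core matched at 2 places in Ltf and in Chil3, at 1 in Il1b and at 0 in Cxcl2. The NF-kB motif matched at 2 places in Cxcl2 and 0 in the other genes shown. Among genes not shown, the C/EBP core matched at 0 places in Camp, 2 in Ngp, 1 in Lcn2 and 1 in Ccl3. The NF-kB motif matched at 0 places in each of these. Over all 32851 promoters of the table, 31.2% held the C/EBP core and 1.09% the NF-kB motif in the same window. Of the 8 specific granule genes 7 had a promoter in the table, and 6 held the C/EBP core and 1 the NF-kB motif. Of 18 chemokine and cytokine genes 11 and 5 held them. A match is a run of letters and not a shown binding site.

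The share of neutrophils among cells of good quality was higher in the knockout library. The rule's 73 cells made 1.25% (0.835 to 1.78) of control cells and 2.61% (1.91 to 3.49) of knockout cells, a ratio of 2.10 (1.28 to 3.48). For the 53 neutrophils the shares were 1.03% (0.661 to 1.53) and 1.72% (1.16 to 2.47), and the ratio of 1.67 had an interval of 0.940 to 3.0 that includes 1. The cells with monocyte genes were 2 and 15, a ratio of 10.4 (2.41 to 93.5). Ly6c2 monocytes were also more frequent in the knockout library, at 4.16% (3.26 to 5.23) against 1.67% (1.19 to 2.28). C1q macrophages were at 4.51% (3.70 to 5.43) in the control and 4.40% (3.47 to 5.49) in the knockout library. Shares depend on how many other cells were recovered, and fewer other cells cannot be told apart from more neutrophils.

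Between the libraries, knockout neutrophils had 240 of 1800 measured genes higher (13.3%) and 380 lower (21.1%) than control neutrophils. Over all 73 cells, 890 of 3732 genes were higher (23.8%) and 626 lower (16.8%), and with S100a8 and S100a9 left out of the totals 688 were higher and 788 lower. The median log2 ratio over all genes was -0.11 in neutrophils and 0.10 over the 73 cells. List counts are of neutrophils, with those over the 73 cells beside them. The genes below were ranked by the bound of the counting interval nearest 1, so their size is a description of these libraries.

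Ftl1, Fth1 and Hmox1, 3 genes of iron storage and haem degradation named from the rankings of ratio and level, were higher in knockout neutrophils. Ftl1, the ferritin light chain, had 2621 control and 8047 knockout CPM, with a ratio of 3.07 (2.76 to 3.42). It was higher in both granule-rich (1583 to 5605 CPM) and granule-poor cells (5115 to 15838 CPM). In monocytes the ratio was 1.22, in macrophages 1.13 and in all other cells 1.65. Fth1, the ferritin heavy chain, had 6843 and 11196 CPM, a ratio of 1.64 (1.52 to 1.76), against 1.85 in monocytes and 1.86 in all other cells, and under the limit in granule-poor neutrophils (1.43). Hmox1, the haem oxygenase, had 150 and 600 CPM, a ratio of 4.0 (2.58 to 6.42), beside 3.90 in macrophages and 3.63 in all other cells. Ferritin genes have near-identical copies in the genome, so their counts carry that uncertainty.

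Of 11 measured genes of the chemokine and cytokine list, 7 were higher and 2 lower in knockout neutrophils. These stand beside 13.3% and 21.1% over all genes, and the median log2 ratio was 0.71. Over the 73 cells 7 of 12 were higher and 1 lower and the median was 0.92, and -0.087 with each cell thinned to 1000 UMIs. Ccl3 and Ccl4, chemokines that attract myeloid cells, stood at 92.2 and 213 CPM (control) and at 524 and 1048 CPM (knockout). Their ratios were 5.69 (3.32 to 10.4) and 4.92 (3.44 to 7.21). For each gene 1 cell, not the same for both, held 45.6% and 49.4% of the knockout UMIs. In macrophages the ratios were 3.0 and 2.61, in monocytes 1.87 and 1.84. Csf1, the macrophage growth factor, had 2 control and 30 knockout UMIs, of which 1 cell held 15. Without the knockout cell of most UMIs of each gene, the ratios of Ccl3, Ccl4 and Csf1 were 3.14, 2.56 and 7.75. The remaining higher genes were Ptgs2, Tnf, Osm and Tgfb1, with ratios of 1.55 to 3.26. Ptgs2 encodes the enzyme cyclooxygenase 2, so the list and its count hold a gene that is no cytokine. In granule-poor cells alone Osm was lower (14 and 3 UMIs, 0.267, 0.0492 to 0.956). Tnf was under the limit there (9 and 10 UMIs, 1.38), and Ptgs2 (7 and 27 UMIs) and Tgfb1 (3 and 6 UMIs) were higher. Neither of the 2 most abundant members reached the limit. Cxcl2 had a ratio of 1.49 (1.34 to 1.66), which turned to 0.620 (0.542 to 0.709) once the knockout neutrophil with 59.6% of these UMIs was left out. Il1b had a ratio of 0.987 (0.835 to 1.17), with 2.58 in granule-rich cells (8 and 22 UMIs) and 1.15 in granule-poor cells.

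The lower cytokine genes were Ccl6 and Il1rn, the receptor antagonist of interleukin 1. Ccl6 had 910 and 373 CPM, a ratio of 0.409 (0.301 to 0.551), and Il1rn 156 and 40.8 CPM from 27 and 7 UMIs, a ratio of 0.262 (0.0963 to 0.617). Over the 73 cells the Ccl6 ratio was 0.683, and in the 7 control and 9 knockout neutrophils with Xist UMIs it was 1.34. In monocytes Ccl6 had nearly the same level in both libraries, at 528 and 511 CPM.

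Of 9 measured chemokine receptor genes 4 were lower and 0 higher in knockout neutrophils, beside 21.1% and 13.3% of all genes, with a median log2 ratio of -0.53. Over the 73 cells 4 of 10 were lower and 2 higher, and the median ranged from -0.70 to 0.47 over the alternatives. They were Ccr1 (518 to 210 CPM), Fpr2 (236 to 99.0 CPM), Ccrl2 (230 to 134 CPM) and Cxcr2 (340 to 221 CPM), the last a gene of the rule. Ccr1 had a ratio of 2.03 in monocytes and 1.51 in macrophages. Cxcr4, a receptor of aged neutrophils, had 397 and 384 CPM. The list of genes of aged and tissue neutrophils did differ. Of its 12 measured genes 6 were higher and 0 lower, with a median log2 ratio of 0.49. Over the 73 cells 9 of 13 were higher and 0 lower, with a median of 0.74, beside 23.8% and 16.8% of all genes.

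Jun and Atf3 stood apart from Fos and Junb among the immediate early genes. Jun had 311 control and 1479 knockout CPM, with a ratio of 4.75 (3.53 to 6.50), and was seen in 14 of 24 and 22 of 29 cells. It was higher in granule-rich (106 to 1009 CPM) and granule-poor cells (804 to 2977 CPM), with ratios of 1.57 in monocytes, 0.897 in macrophages and 1.04 in all other cells. Atf3, a stress-induced factor, had 276 and 774 CPM, whereas Fos had 789 and 530 CPM and Junb 1071 and 996 CPM. In all 4 of 13 were higher (Jun, Atf3, Hspa1a and Klf2) and 0 lower, beside 13.3% and 21.1% of all genes. Over the 73 cells 5 and 2 of 15 were, beside 23.8% and 16.8%. In granule-poor cells alone Fos was lower, with a ratio of 0.471 (0.301 to 0.720). Hspa1a had 4 control and 1 knockout UMIs there, whereas Jun, Atf3 and Klf2 were higher. Cebpd, a C/EBP factor, had 340 and 687 CPM. Immediate early genes also respond to tissue dissociation, and its part in these values was not tested.

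Other genes with large ratios were Tnfrsf23, a decoy receptor of TRAIL (4 and 47 UMIs, ratio 11.9, 4.34 to 45.4), Cited2, a transcription co-regulator (6 and 56 UMIs, 9.43, 4.07 to 26.8), and Gadd45g, a stress-response gene (27 and 170 UMIs, 6.36, 4.22 to 9.94). Gadd45g was under the limit in granule-poor cells (12 and 14 UMIs, 1.45, 0.624 to 3.44) and had a ratio of 9.75 in granule-rich cells. In monocytes the ratios of Tnfrsf23, Cited2 and Gadd45g were 0.428, 1.15 and 2.18. Cycs, the electron carrier cytochrome c, had 86.4 and 408 CPM, with a ratio of 0.934 in granule-poor cells alone, and the phosphate transporter gene Slc20a1 had 57.6 and 239 CPM. The lower genes further included Txn1 (thioredoxin), Slfn2, Ly6c2, Ogt, Myadm, Ywhah, Ptpn18 and Nabp1, with ratios from 0.244 to 0.501. All 12 named higher genes were also higher over the 73 cells, and 8 of the 12 lower genes were lower there. Ptpn18 had a ratio of 1.06 over the 73 cells and Ly6c2 of 1.04. The genes were chosen in the 53 neutrophils, which are part of the 73 cells, so this overlap was partly fixed in advance. In all other cells of good quality, 8 of the 12 higher genes were higher as well. Of the 12 lower genes 0 were lower there and 5 were higher. The share of all genes past the limit in those cells was not computed, so these counts have no background beside them.

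**Figure D4:**
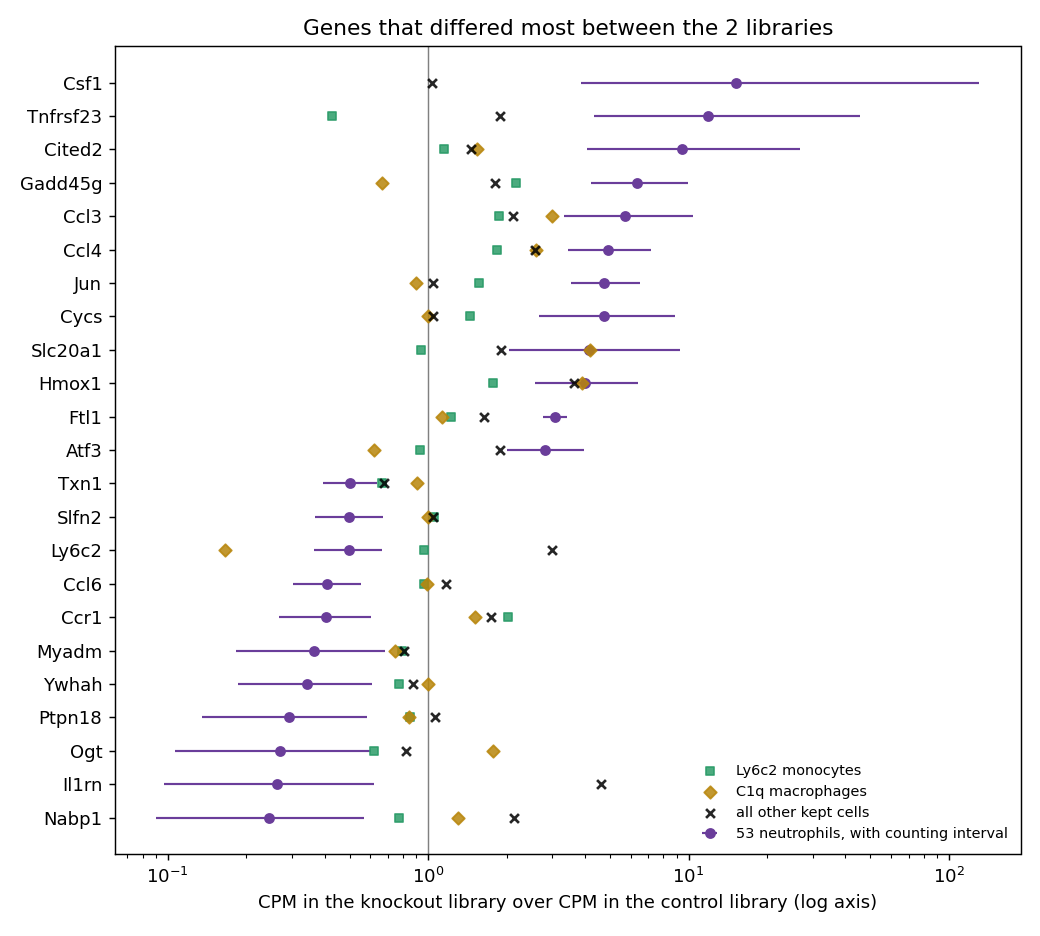
Ratio of CPM in the knockout library to CPM in the control library (log axis) for the 12 higher genes and 11 of the 12 lower genes with the interval farthest from 1 in the 53 neutrophils (circles, bars are exact 95% counting intervals), with the ratios in Ly6c2 monocytes, C1q macrophages and all other cells where at least 20 UMIs were counted. The intervals of Jun and Ftl1 leave out the ratios of the other cell groups, and that of Hmox1 holds those of macrophages and all other cells.

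Granule genes gave no single direction. Over all genes 13.3% were higher and 21.1% lower in knockout neutrophils, and 23.8% and 16.8% over the 73 cells. The first shares stand beside each list count of neutrophils here and the second beside each count over the 73 cells. Ngp was higher in knockout neutrophils (15909 and 25904 CPM) and Olfm4 lower, and the other 6 specific granule genes had ratios between the limits, with a median log2 ratio of 0.30. In the 73 cells 0 of 8 were higher and 1 lower. One control cell held 51.7% of the Camp UMIs and 66.8% of the Chil3 UMIs of its library. All 4 measured primary granule genes were lower, with a median log2 ratio of -1.19, and 1 control cell held 66.0% to 100% of each. In the 73 cells 1 of 5 was higher and 2 lower. Of 7 NADPH oxidase genes 0 passed the limit in either direction, and over the 73 cells 1 in each. Anxa1 had 1509 and 3173 CPM, a ratio of 2.10 (1.81 to 2.45) that was 0.377 in granule-poor cells alone, and Prok2 138 and 279 CPM. One cell held 54.2% of the knockout UMIs of Prok2, and without it the ratio was 0.960 (0.513 to 1.79). Of the 9 measured angiogenic genes 5 were higher, 3 of which are also in the cytokine list, and Vegfa was lower (16 and 9 UMIs). Over the 73 cells 2 of the 9 were higher and 2 lower.

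Several differences over the 73 cells lay in the cells that carried monocyte genes. All 6 MHC class II genes were higher over the 73 cells, with a median log2 ratio of 2.15, and 1 knockout cell with monocyte genes held 81.8% of the Cd74 UMIs. In the neutrophils only 2 of the 6 reached 20 UMIs. The heat shock gene Hspa1a had 63.0 and 1596 CPM over the 73 cells, a ratio of 25.3 (15.9 to 43.0). Of its 607 knockout UMIs, 579 were in the 15 cells with monocyte genes. Hspa1a and Hspa1b together were uneven over these 15 cells, with a median of 2 UMIs, a maximum of 355 and 11 cells above 0. In the neutrophils Hspa1a had 8 and 28 UMIs. The median of the 20 oxidative phosphorylation genes was 0.35 over the 73 cells and -0.25 in the neutrophils, and that of the 24 neutrophil identity genes was -0.50 and -0.01.

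**Figure D5:**
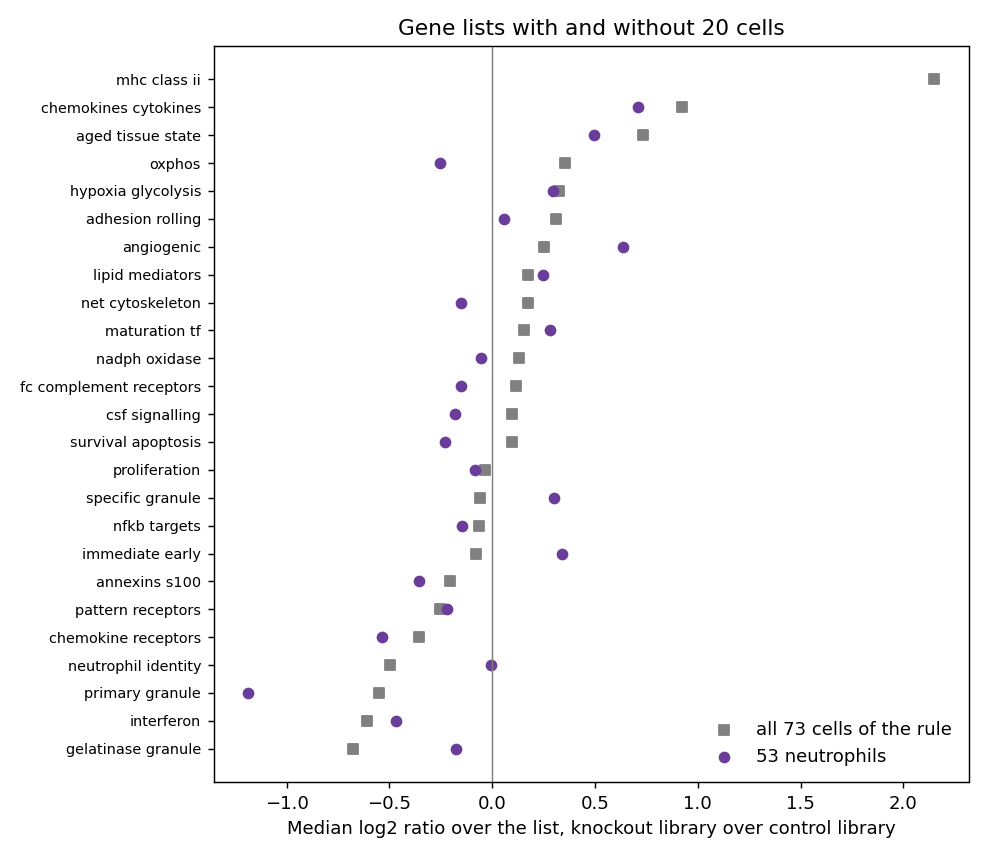
Median log2 ratio of knockout over control CPM for each gene list with at least 3 measured genes, over all 73 cells of the rule (squares) and over the 53 neutrophils (circles). Chemokines and cytokines lie at 0.92 and 0.71, and MHC class II at 2.15 with no circle.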

How the data were processed

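The deposited values are UMI counts of 31053 genes in filtered cell barcodes, 1 matrix a library, which the authors did not normalise. Cell Ranger versions differed between genotypes: 5.0.0 for the control and 6.0.1 for the knockout, per the file headers. Alignment was to mm10, per the submitters' processing notes, which list version 6.0.1 alone. All barcodes together held 35918862 control and 17277162 knockout UMIs. A barcode was kept with 500 genes, 1000 UMIs and no more than 10% mitochondrial UMIs, which left 4012 of 6050. The members and gene lists were chosen with earlier results of these data known.

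UMIs were summed over a cell group and scaled to CPM, and a gene counted as measured from 20 UMIs in both libraries together. Ratios carry the exact conditional 95% interval of 2 Poisson rates and shares the Clopper-Pearson interval. With 1 library per genotype no test was run. Ly6c2 monocytes had 2 or more Ly6c2 UMIs, at least 1 of Ccr2 and under 10 of C1q genes, and C1q macrophages 10 or more of C1q genes. Both had under 50 S100a8 and S100a9 UMIs and 0 of Cdh5, Sox10 and Notch3. Named genes are list members, the 25 of highest level, the 20 of highest fold over other cells, and the 12 higher and 12 lower whose interval bound nearest 1 lay farthest from it. These last needed 30 UMIs, and in the higher library 5 cells, no cell with over 50% of the UMIs and a level not below that of other cells. Of these lower genes 1 is not reported here. Alternatives changed the rule, the filters and the scaling. Calculations were tested on simulated data. Python 3.11.15, scipy 1.17.1 and scanpy 1.11.5 were used.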

Additional observations from a re-analysis of the deposited data

How the results depend on the processing

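The ratio of neutrophil shares stayed above 1 in every alternative tried. Its interval included 1 without the 20 cells with RNA of another type (1.67), without those with monocyte genes (1.49), in Xist-positive cells (2.15) and among cells with a Ptprc UMI (1.42, 0.849 to 2.40). It reached 4.06 (0.886 to 37.7) in cells with Y-linked UMIs and no Xist UMI, from 2 control and 11 knockout cells. The share of granule-rich cells had a ratio of 0.545 to 1.16, with an interval that includes 1 in each alternative. Counts over the 73 cells moved most. The count of higher genes was 890, against 329 with Xist-positive cells only, 493 with Y-positive cells, 287 without the cells with monocyte genes, 240 without all 20 cells with RNA of another type, 150 with each cell thinned to 1000 UMIs and 342 with at least 50 UMIs a gene. That of lower genes was 626, against 154 with Y-positive cells, 380 without the 20 cells, 79 thinned and 195 with 50 UMIs. Of the gene lists 5 had a median past 1.5-fold, against 8 when S100a8 and S100a9 had to reach 1% of UMIs, 9 without cells with 3 UMIs of other types, 9 in Y-positive cells, 3 without the 20 cells, 3 by the mean CPM over cells and 0 thinned. Thinning leaves fewer UMIs and Y-positive cells are few; the other causes were not tested.

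Each alternative measured its own set of genes. Of 25 list medians 22 lay on either side of 0 in some alternative, and of 37 named gene ratios 12 lay on either side of 1, Il1b and Mmp9 among them. Medians past 1.5-fold, and ratios whose interval left out 1, turned in the following cases. The gelatinase granule median was 0.36 in Xist-positive cells and the cytokine median was -0.087 after thinning. In Xist-positive neutrophils Ccl6 had a ratio of 1.34, Camp of 0.810 and Thbs1 of 1.43. Over all 73 cells Ptpn18 had 1.06, Ly6c2 1.04 and Camp 0.954, and Ptpn18 had 1.24 after thinning. Without the knockout cell of most UMIs of the gene, an alternative chosen after seeing the data, Cxcl2 had 0.620 and Prok2 0.960. In granule-rich cells Cxcl2 had 0.433, and in granule-poor cells Cycs had 0.934, Anxa1 0.377, Camp 0.311 and Ngp 0.879. Gene ratios in Y-positive neutrophils were not computed, as under 5 cells remained in a library. No paired analysis was possible because each genotype has 1 library.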

Other observations

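Further gene groups differed in few members between the libraries. Of 9 measured lipid genes 3 were higher in knockout neutrophils and 0 lower, beside 13.3% and 21.1% of all genes, and over the 73 cells 4 of 11 were higher and 3 lower. Plin2, which coats lipid droplets, had 57 control and 101 knockout UMIs, a ratio of 1.79 (1.28 to 2.52). Alox5ap, which leukotriene synthesis requires, had 1112 and 1648 CPM, a ratio of 1.48. Of 12 hypoxia and glycolysis genes 2 were higher and 2 lower, and over the 73 cells 5 and 2 of 15. Eno1, a glycolytic enzyme with near-identical copies in the genome, had 18 and 58 UMIs, a ratio of 3.26 (1.89 to 5.87), and Hilpda had 39 and 6 UMIs, of which 1 control cell held 74.4%. Among neutrophil identity genes, Mrgpra2b had 27 and 65 UMIs, a ratio of 2.43 (1.53 to 3.97), whereas Ly6g had 55 and 68 and Mmp9 had 183 and 161.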
